A study of Caenorhabditis elegans with 34 samples.

Results

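The step from the second to the third larval stage (L2 to L3) was examined in glp-4(bn2) worms of Caenorhabditis elegans, on 4 L3 arrays and 3 L2 arrays out of 34 spotted DNA arrays in the series. An array was taken as L3 or L2 by the stage its description files it under, and by nothing measured on it. Each array set green-labelled RNA of synchronized worms against a red-labelled reference pool of wild-type RNA. The 7 matching wild-type (N2) arrays, 4 of L3 and 3 of L2, served for comparison. The labels describe glp-4(bn2) as the strain with no germ line; the sources used here do not give its growth temperature or any temperature shift. All 7 glp-4(bn2) arrays share the bn2 allele, so a comparison of its stages does not vary the genotype.

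The bn2 allele is temperature-sensitive. The gene encodes a valyl-tRNA synthetase, and at the restrictive temperature the germ-line precursors of mutant larvae stop dividing early, so that the worms keep a few arrested germ cells and form a largely normal soma. In wild-type larvae the germ line multiplies through these stages and enters meiosis from about L3 on, while the soma grows and moults between stages. A comparison of stages within glp-4(bn2) addresses larval growth in worms described as lacking the germ line, and the same comparison in wild type includes it. RNA came from whole worms, so fewer cells of a type and less RNA per cell cannot be told apart.

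Values below are log2 ratios of worm RNA over the reference pool, with signs turned from the deposited red over green, so a change of 1 is a doubling if the base is 2; the sources used here do not state the base. The 7 arrays held 10597 to 11247 values each for 13323 probes. Of these probes 10512 had at least 2 values in each group and were tested, and 2811 were not. A gene-class symbol stood on 957 probes and any gene name on 5582, so most changed probes cannot be described by gene.

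One L2 array carried labels that disagreed. The source name of glp-4 L2 replicate 1 reads L3, while its title and description read L2. Over the 1186 probes that passed the test without this array and had a value on it, its values lay a median of 0.49 of the way from the mean of the other L2 arrays to the L3 mean (quartiles 0.29 and 0.70). The 4 L3 arrays, placed in the same way, lay at 0.75 to 0.98, and the other L2 arrays at -0.02 and -0.10. Each array was placed by means and probes taken without it, so these positions do not share 1 scale. For the other L2 arrays, replicate 1 was part of the L2 mean. On its own scale replicate 1 stood between the stages and apart from the mean of the other L2 arrays. It correlated at 0.68 on average with the L3 arrays of its own strain, at 0.65 with its own L2 group and at 0.77 with wild-type L2 arrays. For L2 replicate 2 these means were 0.55, 0.69 and 0.64. L2 replicate 3 correlated less than replicate 1 with each of these groups, at 0.46, 0.61 and 0.50. Replicate 1 was kept as L2. The counts of calls are given with and without it, and for single genes its weight is given only where stated.

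**Figure D1:**
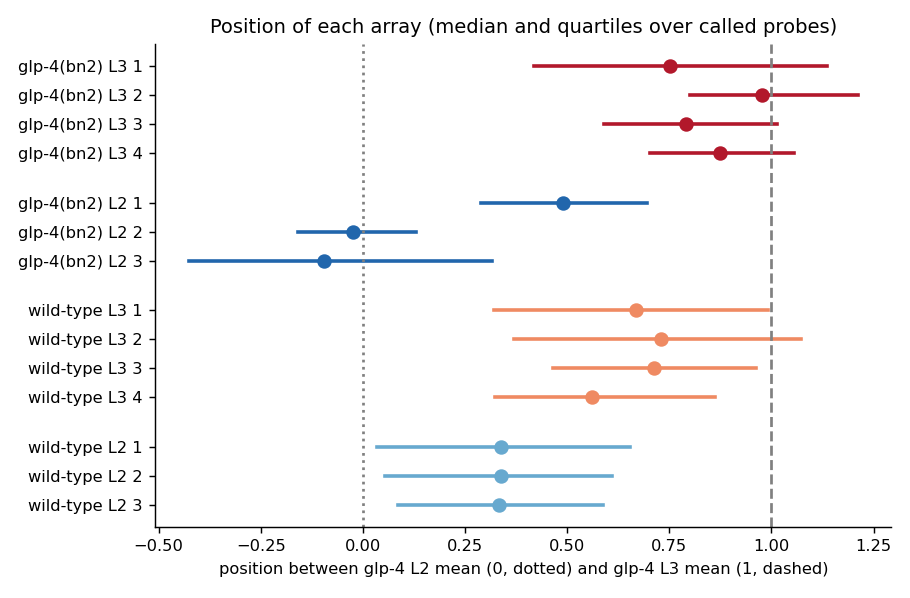
Position of each L3 and L2 array of both strains on the line from the glp-4(bn2) L2 mean (0) to the glp-4(bn2) L3 mean (1), as the median (point) and quartiles (bar) over probes called without that array. For a glp-4 array the means also left it out, so positions of glp-4 arrays do not share 1 scale. The glp-4 L3 arrays sit at 0.75 to 0.98, glp-4 L2 replicate 1 sits at 0.49 and its fellow L2 arrays near 0, and wild-type L3 arrays (0.56 to 0.73) lie beyond wild-type L2 arrays (0.33 to 0.34).

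Between L2 and L3 the RNA of glp-4(bn2) worms shifted widely, and more probes rose than fell. At an adjusted p under 0.05 (limma, Benjamini-Hochberg over all tested probes), 705 probes were higher in L3, which is 6.71% of those tested, and 375 were lower, which is 3.57%. At least a 2-fold change was seen for 440 of the higher and 181 of the lower probes. The L3 and L2 arrays did not overlap for 973 of the 1080 called probes, and for 2371 (22.6%) of all tested probes. The median of all tested probes was -0.09, so changes are read against a background close to 0.

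Without glp-4 L2 replicate 1 the counts were 849 higher and 362 lower, of which 644 and 251 were calls made with it. Counted as an L3 array instead, it left 659 higher and 198 lower. The counts leaned more on the other L2 arrays: there were 360 higher and 118 lower without replicate 2, and 289 and 181 without replicate 3. With the 7 arrays fitted alone, in place of all 29 reference arrays sharing 1 spread per probe, 159 probes were higher and 81 lower. The changes themselves are the same in that fit, while the estimate of their spread and the degrees of freedom behind it differ.

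The gene list with the most calls was that of mitochondrial genes. Of its 14 tested members, 8 rose, none fell and 6 did not pass the test, against 6.71% of all probes higher; the median change of the list was 0.81. The median in wild type was 0.14 over 12 members. Of the 8 genes, 5 encode subunits of complex I, the first enzyme of the respiratory chain, out of 6 complex I subunits tested.

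The largest rise among these subunits was that of ndua-5 (chromosome IV), which stood at 0.79, 0.03, -0.09 and 0.00 on the L3 arrays and at -0.91, -1.23 and -2.12 on the L2 arrays. Every L3 array exceeded every L2 array, which was a condition for genes named by size, as this one was. L3 replicate 1 stood above the other 3. The change was 1.60 ± 0.34 (SE; adjusted p = 0.00334, limma). For ndub-6 (chromosome IV), another complex I subunit, the L3 values were -0.07, 0.29, 0.38 and 0.47 and the L2 values -0.28, -1.10 and -1.50, with a change of 1.23 ± 0.23. L2 replicate 1 was the nearest of the L2 arrays to the L3 arrays for both genes. The subunit gene ndub-3 stood at 0.53, 0.91, 0.38 and 0.48 in L3 and at -0.15, -0.66 and -0.85 in L2, a change of 1.13 ± 0.21. The further subunits ndua-7 and ndub-10 changed by 0.82 ± 0.24 and 0.79 ± 0.20 (SE). The remaining tested subunit, ndub-5, changed by -0.18 ± 0.21 and did not pass the test.

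Outside complex I, mpc-1 (chromosome III), a subunit of the carrier that brings pyruvate into mitochondria, stood at 0.69, -0.14, -0.13 and 0.04 on the L3 arrays and at -0.83, -1.27 and -1.90 on the L2 arrays. It rose by 1.45 ± 0.24 (adjusted p = 7.27e-04, limma). The groups did not overlap, which was a condition for genes named by size, as this one was. The mitochondrial ribosomal protein gene mrps-27 rose by 1.09 ± 0.23, and timm-17B.1, part of the machinery that imports proteins into the inner membrane, rose by 0.80 ± 0.23. The cytochrome c oxidase subunit cox-4 had a change of similar size, 1.11 ± 0.41, that did not pass the test (adjusted p = 0.0843). The ATP synthase subunit atp-1 (-1.64 ± 1.27) and cox-6C (-0.05 ± 1.29) varied widely between arrays and settled neither way.

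Over the 10 list members with values on all 14 arrays, the mean level was 0.30, 0.46, 0.51 and 0.51 on glp-4 L3 arrays and 0.05, -0.40 and -0.87 on glp-4 L2 arrays. In wild type it lay between 0.22 and 0.69 on L3 arrays and between 0.20 and 0.29 on L2 arrays. The glp-4 L2 arrays were thus the ones that stood low, and L2 replicate 1 the least so. In the direct comparison of strains, 11 of 12 members were below wild type at L2, with a median difference of -0.74, and the median difference at L3 was 0.00; the smallest adjusted p at L2 was 0.0601, for mpc-1 and ndub-6. Without glp-4 L2 replicate 1, 11 of 13 tested list members were called higher, and without replicate 2 or without replicate 3, 5 were. With the 7 arrays fitted alone the median was the same and no member passed (limma), although 9 of 14 had an unadjusted p under 0.05; the adjusted p was 0.0597 for mpc-1 and 0.0528 for ndub-3.

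Further genes of energy, amino acid and nucleotide metabolism were among the called symbols; apart from aprt-1 and nmrk-1 they were picked out after their values were seen. The adenine phosphoribosyltransferase gene aprt-1, which salvages purine, stood at 1.14, 1.07, 0.41 and 0.59 in L3 and at -0.24, -0.70 and -0.71 in L2, and rose by 1.35 ± 0.24 (adjusted p = 9.69e-04, limma). The nicotinamide riboside kinase gene nmrk-1, which feeds NAD synthesis, stood at 0.77, 0.71, 0.20 and 0.25 in L3 and at -0.53, -0.89 and -0.93 in L2, and rose by 1.26 ± 0.21. All L3 arrays lay above 0 and all L2 arrays below it for both genes, and both passed the test in each of the 17 alternative settings. For aprt-1 no overlap of the stages was a condition of the choice.

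The ornithine aminotransferase gene oatr-1 rose by 1.32 ± 0.31, and hach-1, which encodes an enzyme of valine breakdown, by 1.21 ± 0.28. Proline dehydrogenase (prdh-1, 0.89 ± 0.26), the alpha subunit of the electron transfer flavoprotein (etfa-1, 1.00 ± 0.29) and lipoate synthase (lias-1, 0.78 ± 0.24) rose as well. Phosphoglucomutase (pgm-1, 1.16 ± 0.32), adenosine kinase (adk-1, 1.00 ± 0.32) and the acyl-CoA oxidase gene acox-1.4 (1.12 ± 0.35) were also called. For pgm-1, prdh-1 and acox-1.4 the value of L2 replicate 1 reached into the range of the L3 arrays. Called genes of the secretory pathway, likewise picked afterwards, included sec-62, der-2 and mpdu-1: sec-62 of the translocation channel rose by 0.99 ± 0.24, the derlin gene der-2 by 0.80 ± 0.20 and mpdu-1, which acts in glycosylation, by 1.03 ± 0.23 (SE).

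Carboxylesterases, a large family of hydrolases with members expressed in the gut, formed the largest list with calls in a single direction. Of 25 tested cest genes, 6 were higher, none was lower and 19 did not pass, against 6.71% of all probes higher. Their median was 0.42, with 20 of 25 above 0, and the wild-type median was 0.11. The gene cest-2.2 (chromosome V) stood at 1.81, 1.93, 2.23 and 1.94 on L3 arrays and at 0.76, 0.23 and 0.43 on L2 arrays. The groups were well apart, and the change of 1.50 ± 0.26 (adjusted p = 8.61e-04, limma) passed the test in all 17 alternative settings. For cest-9.1 (chromosome X) the L3 values were 1.60, 1.30 and 1.23 and the L2 values 0.55, -0.18 and 0.08, with a change of 1.23 ± 0.24. The gene cest-13 had only 3 L3 values, at 1.22, 1.06 and 1.20, and 2 L2 values, at -0.64 and -0.07; it rose by 1.52 ± 0.30. The others called were cest-5.2, cest-32 and cest-17, with changes of 0.90 to 1.32. Related family members lie close in sequence, and how far their spots share signal was not tested. The count of called cest genes ranged from 3 to 9 over the alternative settings, and was 3 with the 7 arrays fitted alone.

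Among proteases a few genes rose. The cathepsin B-like protease gene cpr-9 (chromosome V) stood at 1.12, 1.25, 1.75 and 1.58 in L3 and at 0.12, -0.39 and -0.75 in L2. It rose by 1.76 ± 0.37 (adjusted p = 0.00331, limma). All L3 arrays exceeded all L2 arrays, which was a condition for naming cpr-9 by the size of its change. It was the only one of 5 tested members of the list of secreted proteases and inhibitors that passed, and the other 4 had changes of -0.75 to -0.08. Of the 5 cathepsin A-like genes, a family set apart from that list, ctsa-3.1 (1.11 ± 0.18) and ctsa-1.1 (1.00 ± 0.28) rose and 3 did not pass, against 6.71% of all probes higher. For ctsa-1.1 L2 replicate 1 (1.51) lay among the L3 arrays (1.15, 1.95 and 1.58).

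Of 18 tested members of the transporter list, 3 rose, none fell and 15 did not pass, against 6.71% of all probes higher; the median was 0.29, against 0.14 in wild type. The sodium-proton exchanger gene slc-9B.2 stood at 1.20, 2.16, 1.53 and 1.95 in L3 and at 0.51, 0.33 and 0.32 in L2, and rose by 1.32 ± 0.29. It lost its call with glp-4 L2 replicate 1 counted as L3. The other called members belong to the family of mitochondrial carriers. The gene slc-25A10, whose human counterpart carries dicarboxylates, rose by 1.05 ± 0.24, and slc-25A51, whose human counterpart carries NAD, by 0.59 ± 0.15 (SE). Only 1 transporter was called with the 7 arrays fitted alone, and 1 without glp-4 L2 replicate 3. The zinc transporter genes (zipt), 7 of them tested, had a median of -0.01.

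Several of the largest rises belonged to genes whose role is not described here. The change of cld-1 (chromosome IV) was 2.48 ± 0.50, from L3 values of 2.15, 3.15, 3.83 and 4.46 and L2 values of 1.53, 1.31 and -0.11 (adjusted p = 0.00218, limma). The L3 arrays differed among themselves by over 2 units. They lay above every L2 array, which was a condition for naming this gene. For kola-4 (chromosome X) the L3 values were tight, at 1.53, 1.21, 1.56 and 1.40, while the L2 values were 0.38, -0.55 and -1.16. It rose by 1.87 ± 0.28 (adjusted p = 1.88e-04, limma) and passed in all 17 alternative settings. The same held for nspg-7.1, which rose by 1.87 ± 0.36. The genes exh-1 (2.10 ± 0.50), rips-1 (1.82 ± 0.50) and spig-15 (1.93 ± 0.62) had larger errors, and spig-15 lost its call without any one of the 7 arrays (adjusted p = 0.0594 to 0.209). With glp-4 L2 replicate 1 counted as L3, exh-1, rips-1 and spig-15 lost their calls, while cld-1, kola-4 and nspg-7.1 kept theirs. The symbol gene with the largest rise, ifas-2 (3.15 ± 0.85), rested on 3 L3 values and 2 L2 values.

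**Figure D2:**
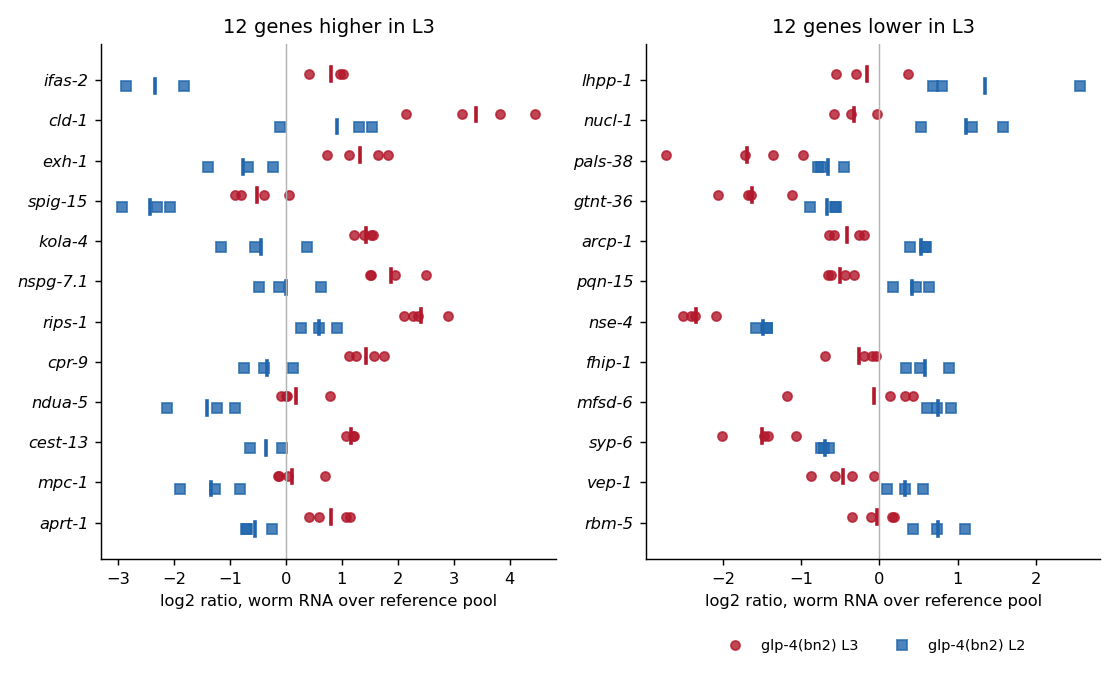
Values of 24 genes on each glp-4(bn2) L3 array (circles) and L2 array (squares), as log2 ratio of worm RNA over the reference pool; short vertical lines are group means. The genes are the 12 with the largest rise and the 12 with the largest fall among called symbol genes whose arrays do not overlap, 1 per family, so the gap between L3 and L2 in every row was a condition of the choice.

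Among called symbol genes the largest falls were smaller than the largest rises. The gene nucl-1 (chromosome IV), for nucleolin, a protein of the nucleolus where ribosomal RNA is made, stood at -0.59, -0.36 and -0.04 on 3 L3 arrays and at 1.19, 1.58 and 0.54 on the L2 arrays. It fell by 1.43 on the log2 scale (SE 0.27; adjusted p = 0.00146, limma). The gene nucl-1 lost its call with the 7 arrays fitted alone and with glp-4 L2 replicate 1 counted as L3. It was the only called member among 13 tested in a list of ribosome biogenesis genes, against 3.57% of all probes lower. The median of the list was -0.05. The list was built from gene classes and its wdr members may have other functions. The snoRNP protein gene nol-56 had a change of -0.92 ± 0.30 that did not pass (adjusted p = 0.0566).

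Of 3 tested members of the list of meiosis and chromosome maintenance, 2 fell, against 3.57% of all probes lower. The gene nse-4 (chromosome IV), a subunit of the SMC5/6 complex of chromosome repair, stood at -2.51, -2.36, -2.09 and -2.40 in L3 and at -1.44, -1.44 and -1.57 in L2. The change was -0.86 ± 0.26 (adjusted p = 0.0385, limma), and it lay beyond the spread of both groups. No overlap of the groups was a condition for genes named by size, nse-4 and syp-6 included. For syp-6 (chromosome I), a component of the synaptonemal complex that joins paired chromosomes, the L3 values were -1.06, -1.47, -1.43 and -2.02 and the L2 values -0.64, -0.71 and -0.74, with a change of -0.80 ± 0.24 (adjusted p = 0.0374). Both are near the threshold: each lost its call in 6 of the 7 runs that left out 1 glp-4 array, with an adjusted p of 0.0806 for nse-4 and 0.0809 for syp-6 without L2 replicate 1. With worm batch as a block it was 0.0654 for syp-6.

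In wild type the change was -0.13 for nse-4 and -0.01 for syp-6. At L3 glp-4(bn2) stood below wild type for both genes, by -0.94 for nse-4 (adjusted p = 0.0341) and by -1.05 for syp-6 (adjusted p = 0.0108), while at L2 the differences were -0.21 and -0.26 and did not pass. The difference between the changes of the strains was -0.73 ± 0.37 for nse-4 and -0.79 ± 0.37 for syp-6, with adjusted p of 0.656 and 0.611 (limma).

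The 9 tested genes of the germ-granule and small RNA list had a median change of -0.42 against -0.09 for all probes, with 1 of 9 above 0, and none passed the test (limma); 3 had an unadjusted p under 0.05. Over 8 members with values on all 14 arrays, the mean level was -1.34, -1.34, -1.22 and -1.61 on glp-4 L3 arrays and -1.14, -1.01 and -1.04 on glp-4 L2 arrays. In wild type it was between -0.93 and -0.49 at L3 and between -0.71 and -0.67 at L2, so all glp-4 arrays were below all wild-type arrays. Among the members, mip-1 and egc-2, germ-granule proteins, had the largest strain differences at L3, at -2.23 (adjusted p = 1.42e-04, limma) and -2.20 (adjusted p = 0.0019, limma). At L2 these differences were -1.29 and -1.57 and did not pass (adjusted p = 0.107 and 0.179). The lower level of germ-granule genes in the strain labelled as lacking a germ line thus passed the test at L3 for these genes and not at L2; the difference between the stages was not called for either gene.

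Outside the lists, 2 called genes of germ granules were noticed after their values were seen. The Tudor protein gene simr-1, of the small RNA pathway, stood at -0.41, -1.83, -1.84 and -1.72 in L3 and at -0.72, 0.22 and 0.82 in L2. It fell by 1.56 on the log2 scale (SE 0.38), and its L3 replicate 1 lay above L2 replicate 1. The gene elli-1 fell by 0.67 (SE 0.21; adjusted p = 0.0433, limma) with no overlap between the stages.

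The remaining falls belonged to single genes. The gene arcp-1 (chromosome III), for an ankyrin-repeat protein of sensory cilia, stood at -0.64, -0.26, -0.19 and -0.57 in L3 and at 0.40, 0.60 and 0.58 in L2. It fell by 0.94 (SE 0.23; adjusted p = 0.00849, limma), and its wild-type change was -0.86. For pqn-15 (chromosome X), which encodes a protein rich in glutamine and asparagine, the L3 values were -0.66, -0.45, -0.32 and -0.61 and the L2 values 0.63, 0.47 and 0.17, a fall of 0.93 (SE 0.17; adjusted p = 0.00145, limma). All L3 arrays were below 0 and all L2 arrays above it for both genes, and no overlap was a condition for naming them. Both genes lost their calls with glp-4 L2 replicate 1 counted as L3. The gene lhpp-1, related to a phosphatase, fell by 1.51 (SE 0.41), and fhip-1, whose human counterparts link endosomes to motor proteins, by 0.84 (SE 0.20). The RNA-binding protein gene rbm-5 fell by 0.78 (SE 0.24), with an adjusted p of 0.0414, and of 0.0610 with worm batch as a block. None of 6 tested rbm genes was above 0, and rbm-5 was the only one called. Over all probes 3.57% were called lower and the median change was -0.09. The call of rbm-5 was lost in 4 of the 7 runs that left out 1 glp-4 array.

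The genes pals-38, mfsd-6, vep-1 and gtnt-36 were called with changes of -1.03 to -0.80. All of them lost their calls with glp-4 L2 replicate 1 counted as L3. Of these, pals-38 (adjusted p = 0.117), mfsd-6 (0.0807) and vep-1 (0.0542) did not pass without glp-4 L2 replicate 1, and they lost their calls in 5, 5 and 4 of the 7 runs that left out 1 array. The pals family responds to infection by intracellular pathogens; 1 of its 18 tested members fell and 17 did not pass, and pals-38 was the only call among 21 tested genes of the immune and pathogen response list (median -0.01). Of 40 tested gtnt genes 1 rose and 2 fell, and of 8 tested mfsd genes 1 rose and 1 fell, against 6.71% of all probes higher and 3.57% lower.

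Lists of other tissues and processes held few or no calls. None of 16 neuropeptide and receptor genes passed (limma; 2 had an unadjusted p under 0.05), with a median of -0.25 against -0.26 in wild type, and nlp-52 was nearest the threshold at -0.71 ± 0.32. None of 13 sperm genes passed, and none had an unadjusted p under 0.05; their median was -0.16 against 0.27 in wild type. None of 6 replication and cell cycle genes, 5 oocyte and eggshell genes, 10 splicing genes or 6 cilia genes passed (limma), and each of these lists had 1 gene with an unadjusted p under 0.05. The medians were -0.19, -0.23, 0.19 and -0.18. All 6 translation initiation genes were above 0, with a median of 0.08, and 1, eif-2Balpha, was called (0.58 ± 0.16). Of 4 F-box genes fbxc-58 was called (0.57 ± 0.16). The share of all probes called higher was 6.71%. The stages overlapped for eif-2Balpha and fbxc-58. In the 7 runs that left out 1 glp-4 array, eif-2Balpha lost its call in 4 and fbxc-58 in 5. The cilia list was built from gene classes, and its tmem members may have other functions. Markers of muscle (1 tested gene) and of the cuticle-making epidermis (2 tested genes) were too few to describe a tissue; among them ptr-25 came nearest the threshold, at -1.05 ± 0.40 (adjusted p = 0.0961, limma).

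**Figure D3:**
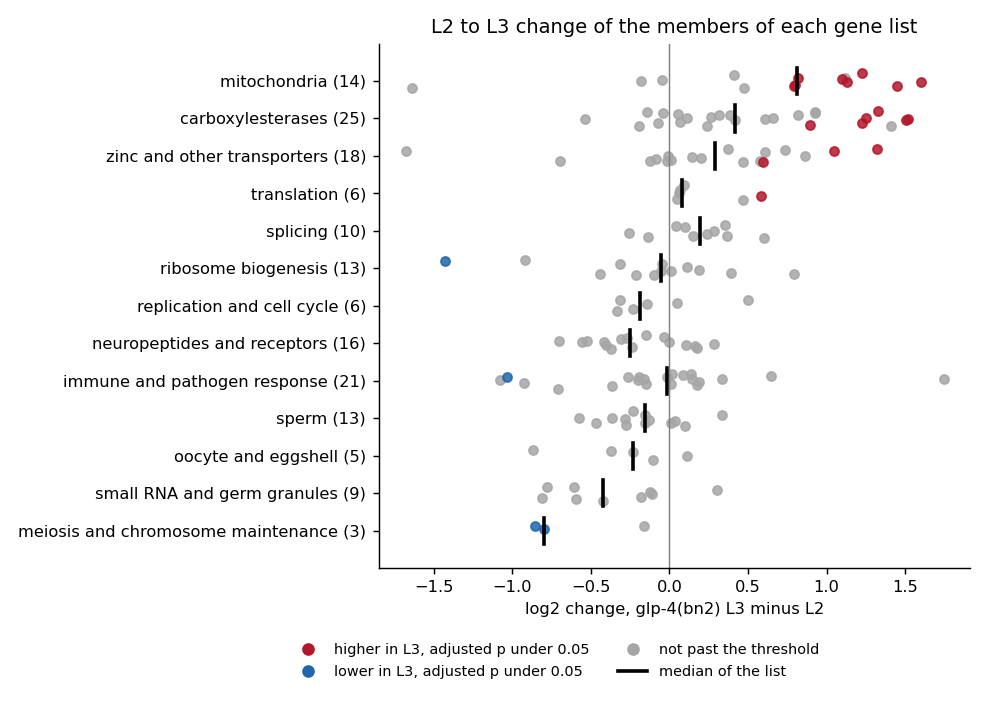
Change from L2 to L3 in glp-4(bn2), as log2 L3 minus L2, of each tested member of 13 gene lists (points; number of members in brackets), with the list median as a black line. Calls stand on the right in the mitochondrial, carboxylesterase and transporter lists, and the 2 called meiosis genes stand on the left.

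Genes known only by sequence names changed as well. No overlap of the stages was a condition for choosing those given here. F28H7.3 (chromosome V) stood at 3.02, 3.05, 3.23 and 3.07 on L3 arrays and at 1.46, 0.45 and -0.68 on L2 arrays, and rose by 2.69 ± 0.36 (adjusted p = 7.27e-05, limma). The L3 arrays were within a narrow band and the L2 arrays spread over 2 units below it. D1086.3 stood at 3.08, 2.43, 2.06 and 2.61 in L3 and at -0.29, -0.75 and -1.27 in L2, a rise of 3.32 ± 0.60. F54D5.4 rose by 2.59 ± 0.40, F35D11.4 by 3.08 ± 0.53 and C50F4.1 by 2.33 ± 0.44 (SE). Of these, F35D11.4 lost its call with glp-4 L2 replicate 1 counted as L3. F52C9.3 had a rise of 4.12 ± 0.73 from only 2 values in each group.

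All 6 of the largest falls among sequence names had missing values. C04E12.4 (chromosome V) stood at -2.02, -0.56, -0.51 and -0.73 on L3 arrays and at 3.16 and 5.60 on L2 replicates 2 and 3, with no value on L2 replicate 1. It fell by 5.33 (SE 0.57; adjusted p = 1.19e-05, limma). In wild type its values were -1.11, -0.54, -0.68 and -1.60 at L3 and 1.15 and -1.04 at L2, so the L2 arrays of glp-4(bn2) were the ones that stood out. C50H2.5 stood at -0.34, 0.13 and -0.10 in L3 and at 2.45 and 3.60 in L2, a fall of 3.12 (SE 0.26; adjusted p = 5.13e-06, limma). C08F11.12 (-4.61 ± 0.97), C10G8.4 (-3.72 ± 1.07) and C44B9.3 (-3.25 ± 0.47) had no value on either replicate 1 array. F35C8.8 stood at 0.19, -3.84 and 0.08 in L3 and at 1.88, 1.94 and 1.91 in L2, with a change of -3.10 ± 0.89; without L3 replicate 3 the change was -1.77 and did not pass.

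The called probes mostly had the same sign of change in wild type, with smaller medians. Among probes called higher in glp-4 L3, 634 of 692 tested in wild type were also above 0 there, and among those called lower, 310 of 352 were below 0, while 48.3% of all probes were above 0 in wild type. The median change of the higher set was 1.12 in glp-4(bn2) and 0.32 in wild type, and that of the lower set was -0.95 in glp-4(bn2) and -0.33 in wild type. The probes were chosen by their glp-4 change, so the larger glp-4 median is in part fixed by the choice. The strains share no L3 or L2 array; arrays of both were set against the reference, under both wordings of its name.

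The wild-type step itself gave few calls. In wild type 14 of 10487 tested probes (0.133%) were called higher in L3 and 5 (0.0477%) lower. Only 4 of these 19 probes could be tested in glp-4(bn2) as well, and all 4 were called there in the same direction. On the line from the glp-4 L2 mean to the glp-4 L3 mean, wild-type L3 arrays lay at 0.67, 0.73, 0.71 and 0.56 and wild-type L2 arrays at 0.34, 0.34 and 0.33. Wild-type stages were thus in the same order as those of glp-4(bn2). Their distance on this line cannot be set against that of glp-4(bn2), whose change chose the probes and sets the scale.

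No probe passed the test of a difference between the strains in the L2 to L3 change: 0 of 10181 (0%; limma), with 795 at an unadjusted p under 0.05. Leaving out glp-4 L2 replicate 1 gave 33 probes and leaving out wild-type L3 replicate 4 gave 30, and 15 passed with worm batch as a block. A larger glp-4 change was therefore not established for any single probe with all arrays. Among symbol genes the difference with the smallest p was that of nspg-11, which rose by 1.34 ± 0.21 in glp-4(bn2) and changed by 0.08 ± 0.21 in wild type (difference 1.26 ± 0.29, adjusted p = 0.138, limma). It was followed by nmrk-1 (difference 1.16 ± 0.30), kola-4 (1.46 ± 0.39), mpc-1 (1.28 ± 0.37) and ndua-5 (1.64 ± 0.48), with adjusted p of 0.269 to 0.324. In wild type mpc-1 stood at -0.17, 0.22, 0.07 and 0.10 at L3 and at -0.33 and 0.10 at L2. The wild-type stages overlapped for this gene, unlike the glp-4 stages.

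**Figure D4:**
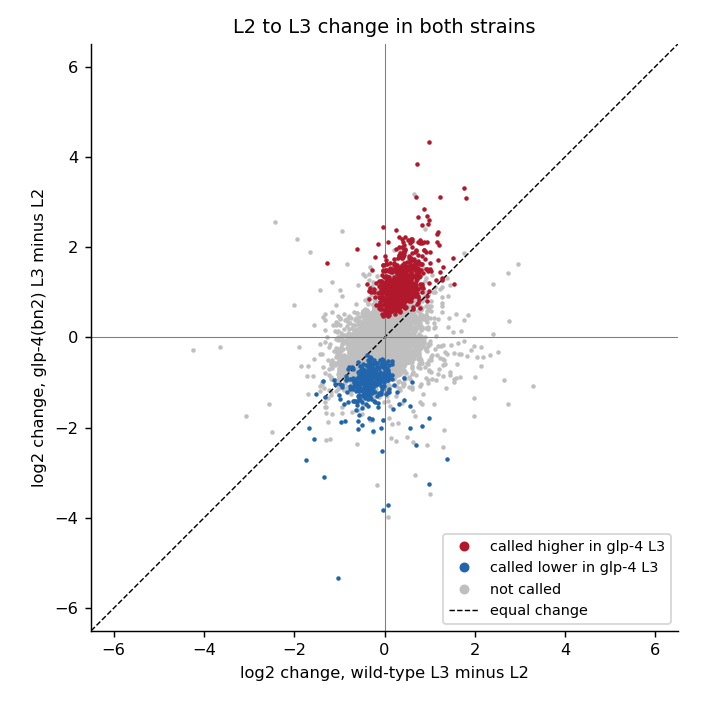
Change from L2 to L3 in glp-4(bn2) (vertical axis) against that in wild type (horizontal axis), both as log2 L3 minus L2, for the 10181 probes tested in both strains; colours mark glp-4 calls and the dashed line marks equal change. Most probes called higher lie to the right of the vertical zero line of wild type, and most called lower lie to its left. Their medians are farther from 0 in glp-4(bn2), by which they were chosen.

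The medians of the called probes were much the same at the later stages of the same strain. Over the 702 probes called higher that had a level in all groups, the median level in glp-4(bn2) was -0.19 at L2, 0.88 at L3, 0.88 at L4 and 0.78 in adults. In wild type it was 0.22, 0.51, 0.30 and 0.15 at these stages. Over 370 probes called lower the glp-4(bn2) medians were 0.44, -0.51, -0.66 and -0.56 and the wild-type medians 0.10, -0.19, -0.32 and -0.49. In glp-4(bn2) the main step for both sets, which were chosen by it, thus lay between L2 and L3, with little change in the medians after it. From L4 to adult in glp-4(bn2), a step whose arrays entered the choice only through the shared spread, the higher set had a median change of -0.13 and the lower set one of 0.11, against a median of -0.08 over all tested probes. At that step 34 of 705 probes of the higher set were called higher and 53 lower. In the lower set 14 of 373 were called higher and 7 lower. Of all 10406 tested probes 270 were called higher and 613 lower. Medians do not show such moves of single probes. All adult arrays name the reference as a mixed control and all L2 arrays as REF-vjr, and the sources used here do not say whether these were the same pool.

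Single genes parted after L3; the ones given here were picked after their values were seen. The rise of cld-1 went on, with glp-4(bn2) means of 0.91, 3.40, 3.91 and 4.93 at L2, L3, L4 and adult, against 0.14, 0.98, 1.18 and 1.33 in wild type. At L3 it was 2.42 higher in glp-4(bn2) than in wild type (adjusted p = 0.00366, limma). For ndub-6 the glp-4(bn2) mean was -0.96 at L2 and between 0.27 and 0.47 afterwards, while wild type stayed between 0.04 and 0.38 at all stages. For nse-4 the glp-4(bn2) means were -1.48, -2.34, -2.42 and -2.15, and the wild-type means were -1.27, -1.40, -0.81 and 0.90, so the strains were farthest apart in adults. For nucl-1 the glp-4(bn2) means were 1.10, -0.33, -0.82 and -1.29, against wild-type means between 1.04 and 1.74.

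**Figure D5:**
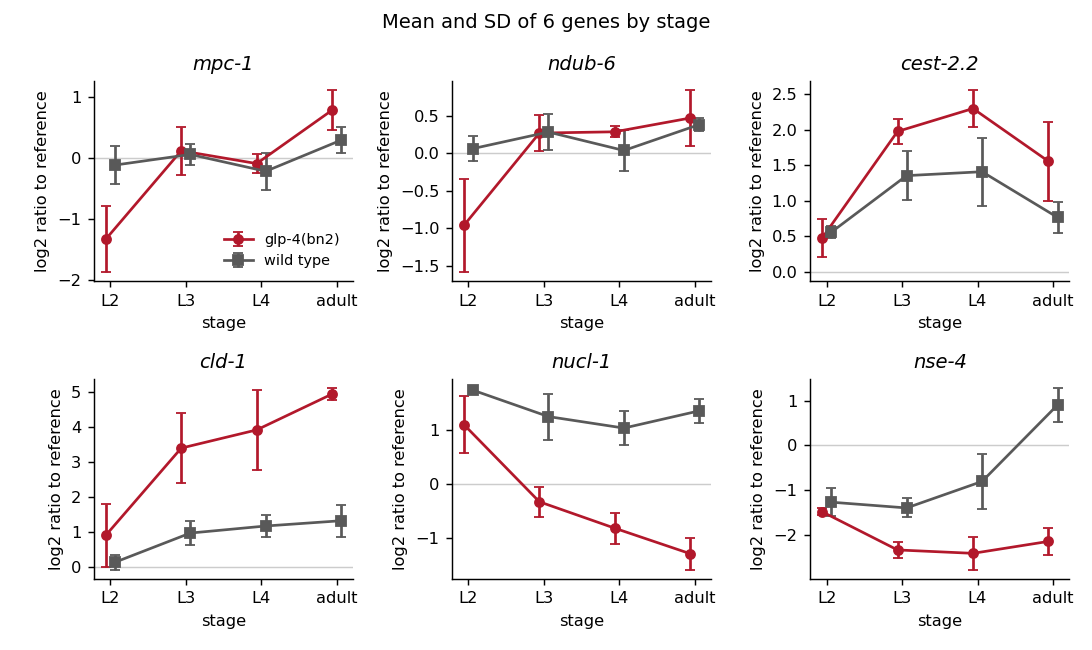
Mean and SD of 6 genes at L2, L3, L4 and adult in glp-4(bn2) (circles) and wild type (squares), as log2 ratio of worm RNA over the reference pool, with n of 2 to 4 arrays per point. The glp-4(bn2) means of mpc-1 and ndub-6 are low at L2 alone, that of cld-1 climbs at each stage, and those of nucl-1 and nse-4 lie farther below wild type at L3 than at L2.

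The reference was named by different wordings within L3 as well: L3 replicates 1 and 3 name REF-vjr, as all L2 arrays do, and L3 replicates 2 and 4 name a mixed control. With only the REF-vjr arrays of L3, 296 probes were higher and 107 lower. With the wording as a block the counts were 630 and 344. Of the named genes, mpc-1, ndua-5, cest-2.2 and cpr-9 were among those that passed with the REF-vjr arrays alone. Among the rises, cld-1, exh-1, rips-1, spig-15, slc-9B.2, slc-25A51 and eif-2Balpha lost their calls. Among the falls, arcp-1, nse-4, syp-6, fhip-1, gtnt-36, pals-38 and vep-1 lost theirs.

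Changed probes lay on every chromosome. Among tested probes with a matched gene, the share called higher ran from 4.81% on chromosome III to 7.98% on chromosome IV, and the share called lower from 1.52% on chromosome II to 3.46% on chromosome III.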

How the data were processed

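RNA of glp-4(bn2) and wild-type worms was measured on 2-colour spotted arrays scanned with GenePix, per the labels. The values deposited are the authors' log ratios of red over green, taken as log2; the sources used here do not give background correction, normalization or spot filtering. Signs were turned to worm RNA over reference. No pair of the 29 reference arrays that included an L2 or L3 array correlated below -0.121. All 29 were fitted with limma 3.58.1 (R 4.3.3) as 8 group means with 1 spread per probe, with two-sided tests and Benjamini-Hochberg adjustment over all tested probes at 0.05. The procedure was run on simulated data with independent noise and the same spread per probe in every group. Such data cannot show whether the shared spread suits the glp-4 L2 arrays. Precision is limited by the number of arrays. The p-values measure the spread between worm batches as numbered in the labels, and batches 2 and 4 were pooled for glp-4 L2 replicate 2. Same-numbered L3 and L2 arrays gave correlations of deviations of -0.19, -0.03 and -0.13; the pairing comes from the batch numbers in the labels, which do not say whether a batch was followed from L2 to L3.

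Gene names come from the platform annotation, with 5559 of 5582 named probes matched to RefSeq genes (WBcel235). For a gene with several probes, the one with most values was used. The genes named are the 12 largest called changes each way among symbol genes with no overlap and 1 per family, the 6 largest each way among sequence names, up to 3 called genes of each list or the one nearest the threshold, the 5 symbol genes with the smallest p for a strain difference, and the genes of the first group lost without glp-4 L2 replicate 1. Lists were built from gene-class prefixes. Members, lists and tests were chosen with earlier results of these data known. No sequence was analysed, and a search of promoters for motifs was not run. The alternatives were another set of fitted arrays, centring, quantile normalization, reference wording, batch block, each array left out, complete values only and robust moderation.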

Additional observations from a re-analysis of the deposited data

Results flagged for a closer look

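Among 41 groups of 4 arrays checked for named genes, 2 held an array far from the other 3, and chance alone flags about 1 in 20 such groups. For ndua-5, glp-4 L3 replicate 1 stood at 0.79 while the next array stood at 0.03 and the lowest at -0.09, so the gap took up 0.871 of the range. For C04E12.4, glp-4 L3 replicate 1 stood at -2.02, the next array at -0.73 and the highest at -0.51, a gap of 0.851 of the range. Without L3 replicate 1 the change of both genes still passed the test.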

How the results depend on the processing

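With all arrays, 705 probes were called higher, 375 lower and 0 for the strain difference (limma). The calls fell to 159 higher and 81 lower with the 7 arrays fitted alone, and to 296 and 107 with REF-vjr L3 arrays only; with glp-4 L2 replicate 1 counted as L3, 198 were lower. Leaving out 1 array at a time gave 289 to 849 higher, 118 to 362 lower and 0 to 33 for the strain difference; the runs without a wild-type array were chosen after seeing the data. With worm batch as a replicate block the counts were 688 higher, 353 lower and 15 for the strain difference. Where arrays were left out or the 7 fitted alone, fewer arrays entered the fit; otherwise the cause was not tested. Of 867 values of 54 named genes under the alternatives, 715 kept direction and side of the threshold, 151 kept direction and lost the call, 1 gained it and 0 turned. Of 47 called named genes, 12 passed in every alternative that gave them a value. A signal over background is not in the values used here, so dim probes could not be set apart.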
